A study of Mus musculus with 8 samples.

Results

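Cytotoxic T-cells and natural killer (NK) cells kill by releasing granules that hold perforin, which opens pores in the target membrane, and granzymes, serine proteases that enter the target and start its death. NK receptors of the lectin-like family sense class I-like ligands on the target, and Fas ligand kills by a separate route through a death receptor. CD8+ T-cells and the granule and Fas routes have been studied widely as causes of β-cell loss in the non-obese diabetic (NOD) mouse.

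The 10 genes examined here were perforin (Prf1), the granzymes Gzma, Gzmb and Gzmk, the granule-associated genes Nkg7, Cst7 and Ctsw, the lectin-like receptors Klrd1 and Klrk1, and Fas ligand (Fasl). They were chosen by name, as every non-control probe on the array carrying a member's symbol. The rule found 14 probes for these 10 of the 21278 genes that had a symbol on the array, and it used no measured value. The genes themselves were chosen with earlier results of these data known. Of the 14 probes, 6 belonged to genes with a single probe, and the brightest probe of a gene, by mean log2 signal over both dyes, stands for it.

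Pancreas RNA of 8 female NOD/LtJ (NOD) mice, 12 weeks of age, was labeled with Cy5 (red), each mouse on its own two-color array. The other dye, Cy3 (green), carried on every array the same pool of RNA from 8 age-matched NOD.B10Sn-H2b/J (NOD.B10) mice, a congenic strain that is not diabetes-prone and carries another H2 region of chromosome 17. No mouse received a treatment, and the comparison addresses how the pancreas differs between the strains before diabetes, at about the age at which insulitis becomes destructive in NOD mice. Because the controls were 1 pool, no spread between control mice can be given. Cy5 always carried NOD RNA, so a dye effect at a probe and a strain effect cannot be told apart. None of the 10 members lies on chromosome 17.

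The 8 acinar cell markers with a probe gave a NOD signal well above background on at least 4 arrays, and the labeled tissue thus carried its defining genes. Over all spots, the NOD signal was well above background (a flag of the scanner software) for 21.6% to 35.3% of spots per array and the pool signal for 57.6% to 60.7%. Where a signal stayed within the noise the software wrote a stand-in value in its place, as it did for 42.9% to 54.0% of the NOD signals per array. The software sets a ratio to 0 where both signals are stand-ins and where a stand-in would turn its direction. A ratio with a NOD stand-in can therefore only be 0 or negative, and one with a pool stand-in only 0 or positive. Replicates 1 to 4 were on slide 1 and replicates 5 to 8 on slide 2, and the grid of replicates 5, 6 and 7 was not rated good. In whole pancreas, fewer cells of a type and less RNA per cell cannot be told apart.

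No member passed the test in either direction, which required a change of ≥2-fold and an adjusted p below 0.01 (limma, one-sample moderated test against a log2 ratio of 0, Benjamini-Hochberg adjustment over 28105 probes). The brightest probes of 7 members entered it. Those of Prf1, Gzmk and Cst7 did not reach a NOD signal of 25 on at least 4 arrays, a filter that reads the NOD dye only. Among all 18193 genes tested, 0.396% were called higher and 1.3% lower in NOD mice, so 0 of 7 is near the background and is no result about the members. At an unadjusted limma p below 0.05, 3 of the 7 (Nkg7, Klrd1 and Klrk1) passed, beside 36.1% of all genes tested, but the sign of Klrk1 was mostly set by stand-ins. The split over all genes, 72 higher and 237 lower, turned to 42 and 18 with normexp background correction and loess, to 1882 and 398 with the ratio of the processed signals, to 3196 and 930 with median-centered signals, and to 79 and 33 where the NOD signal had to be well above background on 4 arrays.

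Most members were near or below the noise in the NOD dye. Of the 80 values (10 genes on 8 arrays), 51 (63.8%) were NOD stand-ins and 9 (11.2%) were well above background, all 9 in Nkg7 and Ctsw. In the pool dye, 10 of 80 were stand-ins (12.5%) and 22 (27.5%) were well above background. The reported ratio was 0 in 33 of the 80, above 0 in 25 and below 0 in 22. Per array, between 2 and 6 of the 10 members had a measured NOD signal, with the most in replicate 6 and the fewest in replicate 1. None of the 184 spots of the 14 probes was saturated or irregular by the software's flags. A member without a measured NOD signal was not detectable at this signal level, which does not show that its transcript was absent.

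**Figure D1:**
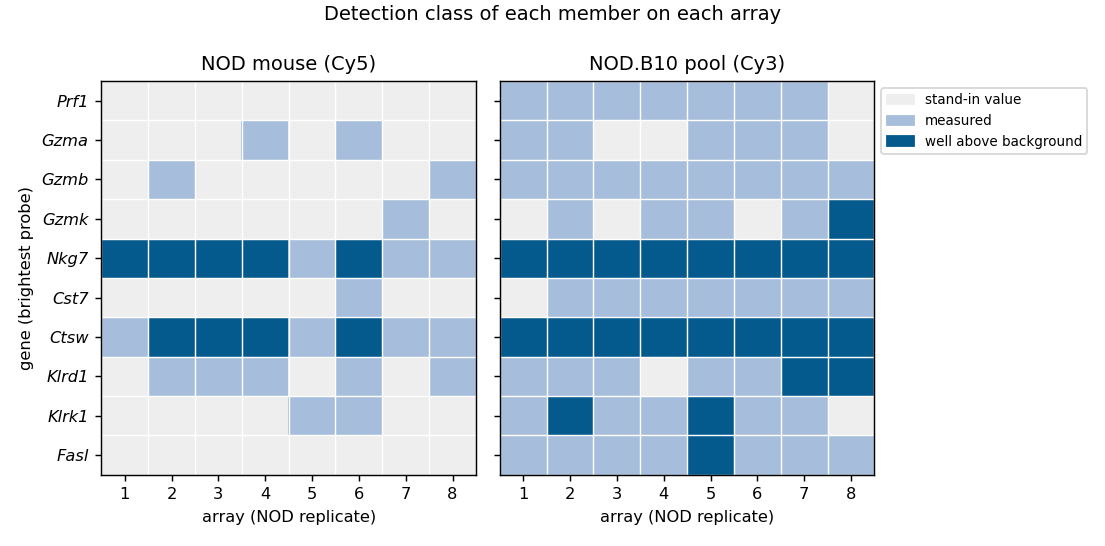
Detection class of the 10 members (rows, brightest probe) on the 8 arrays (columns), for the NOD mouse in Cy5 (left) and the NOD.B10 pool in Cy3 (right). Pale gray marks a stand-in value, light blue a measured signal and dark blue a signal well above background; in the NOD dye the dark squares lie only in the rows of Nkg7 (5 arrays) and Ctsw (4 arrays).

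Perforin forms the pore through which granzymes act. The Prf1 probe (chr10:60699137-60699196, mm8) had a stand-in NOD signal on all 8 arrays, with a lowest value of 11.5, a median of 17.0 and a highest of 30.2 array units. In the pool it ranged from 10.5 to 23.6 around a median of 14.3, also never well above background. The log2 ratio was 0 in 7 mice and -0.51 in replicate 6, and it was not tested.

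Granzyme A is a tryptase-like member of the family and granzyme B cleaves after aspartate. For Gzma (chr13:114216656-114216715), the NOD signal was a stand-in on 6 arrays and was measured in replicate 4 (44.6) and replicate 6 (229). These mice gave log2 ratios of 2.12 and 3.45, and the other 6 gave 0. In replicate 4 the pool signal was itself a stand-in (10.3). No NOD signal of Gzma was well above background, and the stand-ins of replicates 5 (47.2) and 7 (85.3) exceeded the measured signal of replicate 4. The mean log2 ratio was 0.70 ± 1.34 (SD, n = 8), with a 95% interval of the fold from 0.786 to 3.34 and an adjusted p of 0.325 (limma). The exact sign-flip test over the 8 mice gave p = 0.5 (two-sided, smallest possible 0.00781). Without replicate 6 the mean log2 ratio was 0.30, and with normexp and loess it was 0.062. The offset of 50 in that correction draws the ratios of dim probes toward 0 by construction, here and for the genes below.

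For Gzmb (chr14:55213150-55213209), the NOD signal was measured in replicate 2 (80.5) and replicate 8 (89.5) and was a stand-in in the other 6, from 11.9 to 28.5. Those mice gave log2 ratios of 1.83 and 2.29, and of the other 6 mice 3 gave 0 and 3 gave -0.45 to -0.75. The mean was 0.28 ± 1.15 (SD, n = 8; fold 1.21, 95% interval 0.649 to 2.26; limma adjusted p = 0.653). The mice with a measured Gzmb were not those with a measured Gzma. No NOD signal of either gene was well above background, so no difference between these granzymes is read from this.

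Granzyme K is a tryptase-like granzyme whose gene neighbors Gzma, and their probes lie 76055 bases apart. Its probe (chr13:114292770-114292829) was measured in the NOD dye in replicate 7 only, at 31.3, with a log2 ratio of 1.28. The other 7 mice ranged from -0.82 to 0. The mean was 0.01 ± 0.58 (SD, n = 8) and was not tested. The highest pool signal, 46.5 on the array of replicate 8, was the only value well above background in either dye for this gene.

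**Figure D2:**
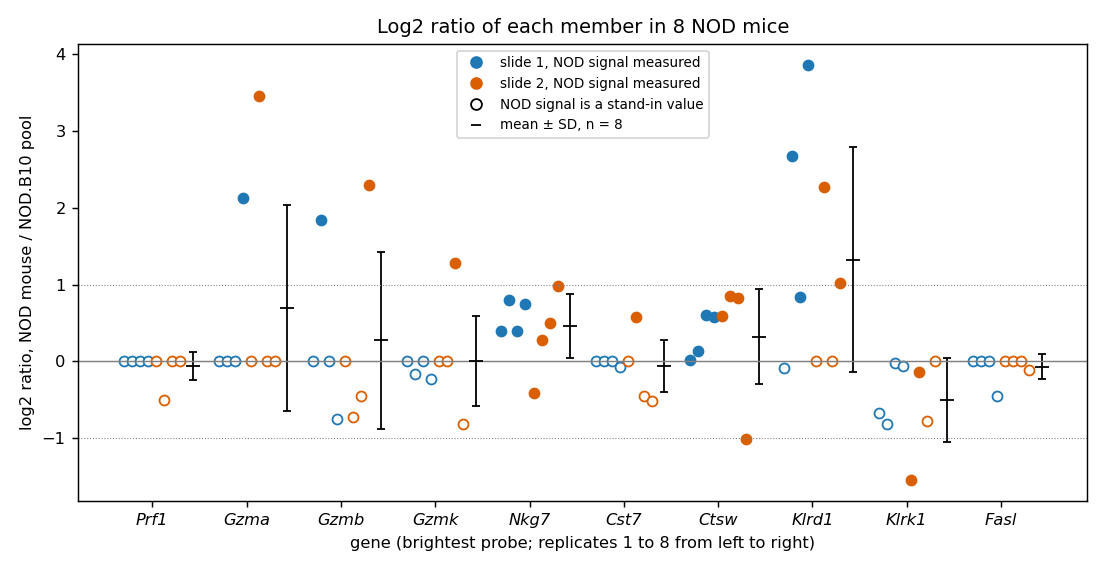
Log2 ratio of NOD mouse over NOD.B10 pool (vertical axis) for the brightest probe of each member (horizontal axis), replicates 1 to 8 from left to right within a gene, blue for slide 1 and orange for slide 2. Filled points have a measured NOD signal, open points a stand-in, the black bar is the mean ± SD (n = 8) and dotted lines mark 2-fold; filled points fill the columns of Nkg7 and Ctsw, and every open point lies at or below 0.

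Nkg7, a granule membrane protein of NK cells and T-cells that takes part in granule release, was 1 of the 2 members measured on every array. The probe (chr7:43306032-43306091) was measured in both dyes on all 8 arrays, and the NOD signal was well above background on 5. In NOD mice the signal ranged from 106.6 (replicate 5) to 387 (replicate 4) around a median of 245, and in the pool from 137 to 231 around 157. These ranges overlapped, and the coefficient of variation was 37.2% across the mice and 23% across repeated measurements of the same pool. The log2 ratio was -0.41 in replicate 5 and between 0.28 and 0.97 in the other 7 mice. The mean was 0.46 ± 0.42 (SD, n = 8), a 1.38-fold higher level (95% interval 1.09 to 1.73) that did not pass the adjusted test (limma adjusted p = 0.0599). The exact sign-flip test gave p = 0.0391 (two-sided, n = 8), and the interval lay below 2-fold. With normexp and loess the mean log2 ratio was 0.12. The second probe (chr7:43305698-43305757) had a NOD stand-in on 5 arrays, with ratios of 0 in 4 mice and an average of 0.30 ± 0.76 (SD, n = 8; adjusted p = 0.46 by limma).

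Ctsw encodes cathepsin W, a cysteine protease found mainly in CD8+ T-cells and NK cells. The probe (chr19:5465371-5465430) was measured in both dyes on all 8 arrays and was well above background in the NOD dye on 4. The NOD signal ranged from 68.8 (replicate 8) to 355 (replicate 6) around a median of 209, and the pool from 124 to 198 around 151. Its log2 ratio was -1.01 in replicate 8 and 0.01 to 0.84 in the other 7 mice. The mean was 0.32 ± 0.62 (SD, n = 8), or 1.25-fold (95% interval 0.896 to 1.75; limma adjusted p = 0.323; exact sign-flip p = 0.195, two-sided). As for Nkg7, the interval lay below 2-fold. The mean log2 ratio was 0.51 without replicate 8 and 0.034 with normexp and loess. Replicate 8, lowest for Ctsw, gave the highest ratio for Nkg7 (0.97), and replicate 5, lowest for Nkg7, gave 0.59 for Ctsw.

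Cst7 encodes cystatin F, an inhibitor of the cathepsins that process granule proteases. Its brightest probe (chr2:150270195-150270254) was measured in the NOD dye in replicate 6 only (36.9, log2 ratio 0.57), and the other 7 mice gave -0.52 to 0. The mean of -0.06 ± 0.33 (SD, n = 8) was not tested. The other probe lies 12240 bases away (chr2:150257896-150257955), and its listed coordinates run against the strand of the gene in the GRCm38 annotation, unlike those of the other 13 probes. It gave 0.79 in replicate 4 and 0 in the other 7 mice, and whether it reads Cst7 was not tested.

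**Figure D3:**
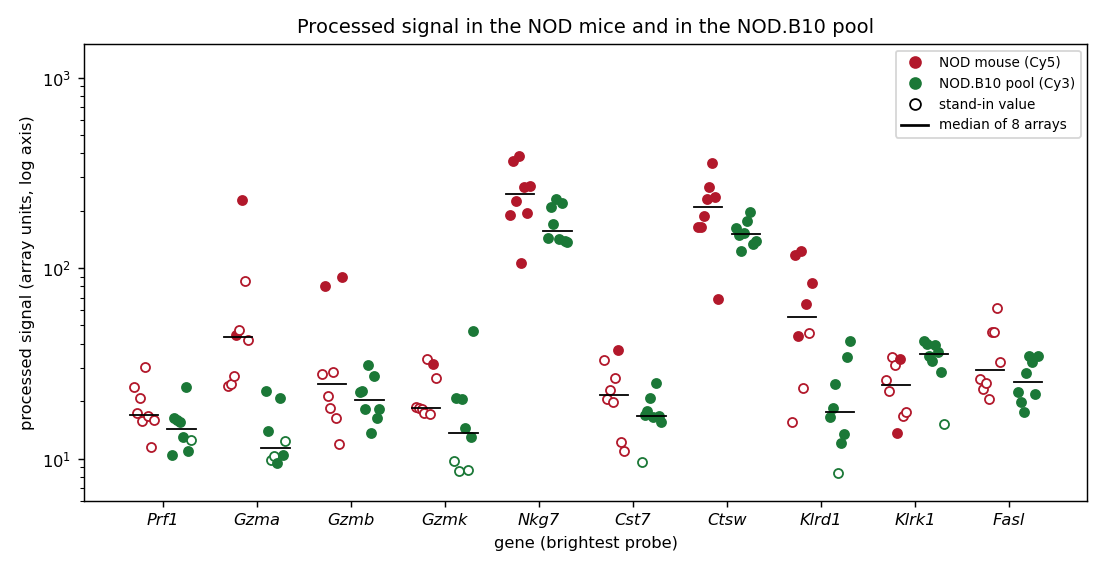
Processed signal in array units on a log axis (vertical) for the brightest probe of each member (horizontal), with the 8 NOD mice in red and the 8 measurements of the NOD.B10 pool in green. Open points are stand-in values and black bars are medians of 8 arrays; Nkg7 and Ctsw lie above 60 in both dyes, while the pool signals of the other 8 members lie below 50.

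Klrd1 encodes CD94, which pairs with NKG2 chains to form receptors for Qa-1 on NK cells and activated CD8+ T-cells. The probe (chr6:129564066-129564125) was measured in the NOD dye in 5 mice, with signals from 44.0 to 123, and was a stand-in in replicates 1, 5 and 7. Log2 ratios were 2.68, 0.83, 3.86, 2.27 and 1.02 in replicates 2, 3, 4, 6 and 8, -0.09 in replicate 1, and 0 in replicates 5 and 7. The highest ratio, in replicate 4, had a stand-in in the pool dye (8.44), and no NOD signal of the gene was well above background. The mean was 1.32 ± 1.46 (SD, n = 8), or 2.50-fold with a 95% interval from 1.13 to 5.51, which did not pass the adjusted test (limma adjusted p = 0.101; exact sign-flip p = 0.0625, two-sided). With normexp and loess the mean log2 ratio was 0.083. The pool ranged from 8.44 to 41.2 over the 8 arrays, and all 5 measured NOD signals lay above that range. Of the NOD stand-ins, those of replicates 1 and 5 lay within it, and that of replicate 7 (45.7) lay above it and above the measured signal of replicate 3 (44.0).

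Klrk1 encodes NKG2D, an activating receptor on NK cells and on activated CD8+ T-cells of mice. Its brightest probe (chr6:129578157-129578446) lies 14032 bases from that of Klrd1. The NOD signal was a stand-in in 6 mice and was measured in replicate 5 (13.6) and replicate 6 (33.1), while the pool signal was measured on 7 arrays, from 28.6 to 41.2. Log2 ratios were -1.55 in replicate 5, between -0.82 and -0.02 in 6 mice, and 0 in replicate 8. The mean was -0.50 ± 0.55 (SD, n = 8) and did not pass the test (limma adjusted p = 0.0969). With NOD stand-ins in 6 mice these ratios could only be 0 or negative, so no direction is read from them. The sign also turned with other scalings, at a mean log2 ratio of 0.025 with normexp and loess and 1.17 with median-centered signals. The second probe (chr6:129577539-129577598) had stand-ins in both dyes on all 8 arrays and a ratio of 0 throughout.

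Fas ligand triggers death through the receptor Fas. The brightest Fasl probe (chr1:163624625-163624684) had a NOD stand-in on all 8 arrays, from 20.5 to 61.5, against a pool signal of 17.5 to 34.5. The log2 ratio was -0.46 in replicate 4, -0.11 in replicate 8 and 0 in the other 6 (mean -0.07 ± 0.16, SD, n = 8), and with stand-ins throughout it could not be above 0. The second probe (chr1:163617846-163617905) was printed in 10 spots on each array, which shows the spread within an array. Of these 80 spots, 70 had a ratio of 0, 10 had a measured NOD signal and none was well above background in either dye. On the array of replicate 6, 3 of the 10 spots were measured and the SD among the spots was 1.22 on the log2 scale, beside a mean of 0.61. Averaged over spots, its log2 ratio lay between 0 and 0.61 and averaged 0.28 ± 0.23 over the mice (SD, n = 8). All 10 measured spots had a pool stand-in and could not be below 0, so the opposite signs of the probes are no measurement of Fasl.

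By the deposited ratio, the order of the members by mean log2 ratio ran from Klrd1 (1.32) over Gzma (0.70), Nkg7 (0.46), Ctsw (0.32), Gzmb (0.28) and Gzmk (0.01) to Cst7 (-0.06), Prf1 (-0.06), Fasl (-0.07) and Klrk1 (-0.50). Each step between neighbors was smaller than the SD of at least 1 of the pair. The ends of this order changed with the scaling, and it ranks probes whose NOD values are mostly stand-ins. Gzma came first with median-centered signals (2.57) and with the ratio of processed signals (1.88), and Nkg7 with normexp and loess (0.12). The last was Ctsw (0.22) with median-centered signals, Fasl (-0.057) with normexp and loess, and Klrk1 (-0.48) with the ratio of processed signals. Between slides, the widest gap was that of Klrd1, with a mean log2 ratio of 1.82 on slide 1 and 0.82 on slide 2 (exact permutation p = 0.371, two-sided). With 4 arrays against 4, a single member could not pass this test once adjusted over the 10 members (smallest possible p 0.0286, or 0.286 adjusted).

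Of the other genes of the cytotoxic program, 100 were listed by role, 90 had a probe matched by symbol and 74 were tested. Of these, 2 were higher in NOD mice (2.70% of 74, beside 0.396% of all genes tested), none was lower, and 19 (25.7%) had an unadjusted limma p below 0.05, beside 36.1% of all genes tested. The lists were drawn up with earlier results of these data known, so these shares describe the lists and test nothing. The median log2 ratio of the 74 was 0.01, beside -0.08 over all genes tested. Signal was low here too, and 56 of the 90 had no NOD signal well above background on any array.

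Both called genes belong to the transcription factors and cytokines of cytotoxic lymphocytes, where 12 of 15 were tested. Tbx21 encodes T-bet, the transcription factor that drives interferon γ and cytotoxic programs in T-cells and NK cells. Its log2 ratio was between 1.38 (replicate 5) and 2.39 (replicate 2) with a mean of 1.83 ± 0.34 (SD, n = 8), a 3.55-fold higher level (95% interval of log2 1.56 to 2.09; limma adjusted p = 0.000305). Every mouse was above the pool, and the NOD signal was well above background on 5 arrays. Ccl5, a chemokine stored and secreted by activated cytotoxic T-cells, ranged from 0.71 to 2.46 with a mean of 1.62 ± 0.53 (SD, n = 8), or 3.07-fold (limma adjusted p = 0.00173), again with all 8 mice higher and a NOD signal well above background on all 8 arrays. With normexp and loess the mean log2 ratios were 0.32 for Tbx21 (limma adjusted p = 0.00557) and 0.65 for Ccl5 (limma adjusted p = 0.0504), and neither passed both thresholds. Tbx21 fell short in fold only, in a setting whose offset draws the ratios of dim probes toward 0. Another probe of Ccl5 gave a mean of 2.26 and narrowly missed the call (limma adjusted p = 0.0108). On slide 1 and slide 2 alone, where no role gene was called, the means were 2.04 and 1.61 for Tbx21 and 1.88 and 1.35 for Ccl5. Eomes, the related T-box factor of NK cells and memory CD8+ T-cells, had a NOD stand-in on all 8 arrays and a mean log2 ratio of -0.04. The lowest tested gene of the list was Zeb2, at -0.14 (limma adjusted p = 0.851). It was at -1.89 and -1.95 in replicates 5 and 8, -0.19 in replicate 7 and 0.41 to 0.88 in the others.

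**Figure D4:**
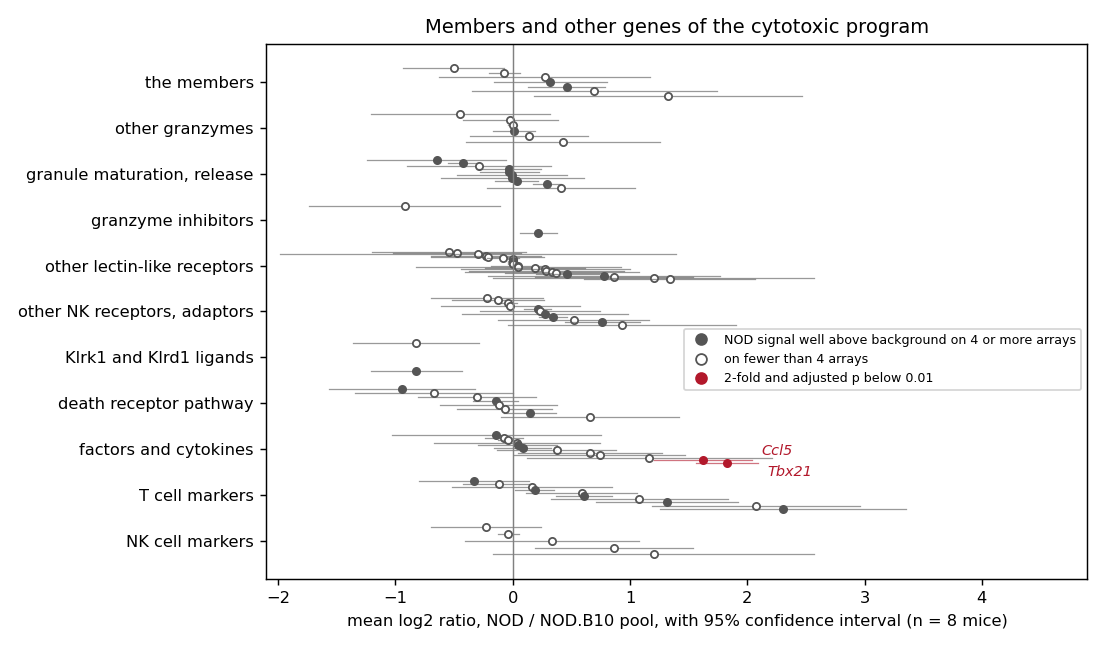
Mean log2 ratio of NOD over NOD.B10 pool with its 95% confidence interval (horizontal axis, n = 8 mice) for each tested gene of the lists named on the vertical axis. Filled points have a NOD signal well above background on 4 or more arrays; the 2 red points, Tbx21 at 1.83 and Ccl5 at 1.62, are the only genes of these lists past both thresholds, and the 7 tested members spread from -0.50 to 1.32.

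The remaining lists held no called gene. Of the other granzymes, 6 of 7 were tested, from Gzme at -0.45 to Gzmm at 0.43, and since Gzmc to Gzmg are close copies their signals may be shared. Neither Gzme nor Gzmm had a NOD signal well above background on any array. Gzme was lowest in replicate 1 (-1.80) and Gzmm highest in replicate 7 (2.33). The 10 genes of granule maturation and release ran from Stxbp2 (-0.65), a syntaxin partner in granule fusion, to Unc13d (0.41), which primes granules for release. Ctsl (-0.42) and Lamp1 (0.29) of this list had limma adjusted p-values below 0.01 at changes below 2-fold, and with normexp and loess their signs turned. Of the granzyme inhibitors, Serpinb9, which blocks granzyme B, was at -0.92 (limma adjusted p = 0.108) and Serpinb6b at 0.22. The ratios of Serpinb9 ran from -1.83 to 1.11 at low NOD signals (22.3 to 168). Among the other lectin-like NK receptors, 23 of 32 were tested, from Klra23 (-0.55) to Klra7 (1.34, limma adjusted p = 0.0244). The Klra genes are near-identical copies whose probes may share transcripts, so single values are uncertain.

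The other NK receptors and signaling adaptors ran from Cd226 (-0.22), an adhesion receptor, to Cd247 (0.93), the ζ chain of the T-cell receptor, over 11 tested of 15. Cd226 was at -1.73 in replicate 1 and at 0 in all other mice, and Cd247 was highest in replicate 7 (3.29). Fcer1g (0.34, limma adjusted p = 0.00507) and Sh2d1b1 (0.76, limma adjusted p = 0.00912) of this list had adjusted p-values below 0.01 at changes below 2-fold. With normexp and loess their means were 0.23 and 0.086, and the other probe of Sh2d1b1 had a NOD stand-in on all 8 arrays. Of the ligands of Klrk1 and Klrd1, 2 of 10 could be tested, and both were below 0. Raet1a, a NKG2D ligand, was at -0.82 (limma adjusted p = 0.0439). Its NOD signal, 23.7 to 69.6, was well above background on no array, so its direction is uncertain. H2-T23, which encodes Qa-1, was at -0.82 as well and lower in all 8 mice (limma adjusted p = 0.0143), but the gene lies in the H2 region of chromosome 17 that differs between the strains, so allele and level cannot be told apart. In the death receptor pathway, all 8 were tested, and the lowest was Tnfrsf10b (-0.94), a TRAIL receptor.

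Markers of the cells that could carry these genes gave a mixed picture, and their part in the results above was not tested. All 10 T cell markers were tested, none was called and 7 had an unadjusted limma p below 0.05, with a median log2 ratio of 0.60. Their summed NOD signal was 5511 to 18608 array units per mouse against 4144 to 10498 in the pool, and on each of the 8 arrays the NOD sum was the higher. Cd3e made up 65.6% to 82.9% of the NOD sum, and without it, a sum added after seeing the data, NOD was the higher on 7 arrays. The highest tested ratios of the list were those of Lck, a kinase of the T-cell receptor (2.30 ± 1.35, SD, n = 8; adjusted p = 0.0128 by limma), and Cd3d, another receptor chain (2.07 ± 1.14, SD, n = 8; adjusted p = 0.0101 by limma). Cd5 was at 1.32 and Cd3g at 1.08, and each of these 4 genes was past 2-fold without passing the adjusted threshold of 0.01 in the fit described above. Several alternatives changed these calls. Cd3d passed with slide as a covariate (limma adjusted p = 0.00803), without spots with stand-ins in both dyes (0.0088) and without replicate 8 (0.000824). Lck passed where the NOD signal had to be well above background on 4 arrays (limma adjusted p = 0.0028) and without replicate 5 (0.00776). Both passed with the ratio of processed signals (0.0017 and 0.0013) and with median-centered signals, and with normexp and loess their means were 0.22 and 0.26. Cd3e, a chain of the T-cell receptor complex, lay between 0.25 and 1.03 and averaged 0.61 ± 0.31 over the mice (SD, n = 8; adjusted p = 0.00762 by limma), below 2-fold. Another probe of Cd3e had a NOD stand-in and a ratio of 0 on all 8 arrays. The pool signal of the brightest Cd3e probe was 2353 to 7777, beside 19.0 to 49.8 for Cd3d. Whether that probe reads only Cd3e was not tested. Cd4 was at 0.19 (limma adjusted p = 0.106). Cd8a, which marks cytotoxic T-cells, was at -0.12 ± 0.39 (SD, n = 8; limma adjusted p = 0.547), higher in 3 mice and lower in 5, and its sign turned on slide 1 alone (0.18) and with other probes of the gene (0.040 and 1.39). Cd8b1, the other CD8 chain listed, was brighter, with NOD signals of 484 to 2246. It ran from -1.16 to 0.59 and was above 0 only in replicates 3 and 4. Of the 10 T cell markers, 8 means were above 0 and 2, those of the CD8 chains, were below.

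Of the 7 NK cell markers, 5 were tested and none had a NOD signal well above background on any array. In sum, their NOD signal was 198 to 527 and their pool signal 129 to 248, but 44 of the 56 NOD values were stand-ins. Stand-ins were brighter in the NOD dye, with a median per array of 20.2 to 40.9 against 7.87 to 11.8 in the pool dye, so these sums are not compared. Ncr1, which encodes the NK receptor NKp46, had a NOD stand-in on all 8 arrays and was at -0.50 (not tested). Klrb1c, which encodes NK1.1, was a stand-in in 5 mice and was at 2.49, 4.44 and 2.68 in replicates 2, 7 and 8 (mean 1.20 ± 1.75, SD, n = 8; limma adjusted p = 0.198). The pool value of Klrb1c was a stand-in on 6 arrays, those of replicates 2 and 7 included, so these ratios could not be negative, and without replicate 7 the mean was 0.74. The mice with a measured Klrb1c were partly others than those with the highest Klrd1 (replicates 4, 2 and 6). No gene was called among the mast cell markers (6 of 7 tested, median -0.27), the B cell markers (6, -0.01), lymph node stroma and high endothelium (6, 0.86), macrophage and neutrophil (6, 0.14), acinar cell (8, 0.04) or islet markers (5, -0.38). Single markers in these lists were past 2-fold without passing the adjusted threshold. They were Cd79b (1.18 ± 1.39, SD, n = 8; adjusted p = 0.12 by limma) and Ms4a1 (1.01 ± 1.51, SD, n = 8; adjusted p = 0.206 by limma) among the B cell markers, each higher in 6 of 8 mice, and the median near 0 is taken over means on both sides of 0. The others were Ccl19 (1.32, adjusted p = 0.0109 by limma), a chemokine of lymph node stroma, the neutrophil gene S100a9 (1.08, adjusted p = 0.0666 by limma) and the mast cell protease Mcpt4 (-1.26, adjusted p = 0.0183 by limma). In the list of Ccl19, 4 means were above 0 and 2, those of Chst4 and Madcam1, were below. No mast cell marker had a NOD signal well above background on 4 or more arrays, and that of Mcpt4 was 14.5 to 118.

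The median log2 ratio of the 10 members was 0 on 6 arrays, -0.03 in replicate 4 and 0.14 in replicate 6. The 5 genes whose ratio across the 8 arrays was most like this median, of 8038 other genes with a NOD signal well above background on at least 6 arrays, were Mep1a (Pearson's r = 0.95), Gm4989 (0.95), Osbpl2 (0.93), Eml1 (0.92) and Coq9 (0.92). The likeness follows replicate 6, since the median hardly moved elsewhere, and the points share the pool and the scan of each array. The median of the T cell markers, by contrast, was 0.10 to 0.77 over the arrays and was 0.36 in replicate 6.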

How the data were processed

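The authors scanned 8 two-color arrays and extracted them with Agilent Feature Extraction (10.7.3.1), with probe positions on mm8. The deposited files give per spot the log10 ratio of Cy5 over Cy3, processed and background-subtracted signals as intensity values after background correction and dye normalization, and flags for stand-in values and signals well above background. Other deposited columns, such as spot positions, were not used.

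Log10 ratios were converted to log2 and spots of a probe averaged. Symbols matched by current or older name. Probes with a symbol and a red signal of at least 25 on 4 or more of 8 arrays entered the limma fit (limma 3.58.1 in R 4.3.3), with the thresholds of the study (2-fold, adjusted p below 0.01), whose statistic was a plain one and whose further filters, which rest on human genes and human samples, were left out here. The fit was tested on simulated data. Single genes were tested with all 256 sign flips, slides by exact permutation. Tables and plots used Python 3.11.15 (numpy 2.4.6, pandas 2.3.3, matplotlib 3.10.9).

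Alternatives were the plain statistic, other filters, median-centered background-subtracted signals, normexp (offset 50) with loess, the ratio of processed signals, slide as covariate, single slides, each mouse left out, other probes, an adjusted p of 0.05 and a fold of 1.5. All 10 members are named, and of the role lists every called gene and the highest and lowest tested, of which 1 is not reported here. For marker lists these were called genes, Cd3e, Cd8a, Cd4, Ncr1 and Klrb1c, and by likeness 5 genes. Genes named beyond this rule were chosen after their values were seen. They were Eomes, Ctsl, Lamp1, Fcer1g, Sh2d1b1, Cd3d, Cd3g, Cd5, Lck, Cd8b1, Cd79b, Ms4a1, Ccl19, Chst4, Madcam1, S100a9 and Mcpt4. Members and lists were chosen with earlier results of these data known. The labels do not say whether RNA was prepared in batches. Array number, 8, limits the precision.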

Additional observations from a re-analysis of the deposited data

Results flagged for a closer look

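A mouse far from the others (its gap to the nearest mouse, over the range of all 8, above Dixon's critical value) was found for 5 member probes. Chance flags about 1 in 20 groups, and groups in which most ratios are set to 0 are flagged more readily. Prf1 was at -0.51 in replicate 6 against 0 in the other 7 mice, with a stand-in on the NOD side. Gzmk was at 1.28 in replicate 7, its only measured NOD signal. The second Cst7 probe was at 0.79 in replicate 4 against 0 in the rest. Fasl was at -0.46 in replicate 4, again a stand-in. Ctsw was at -1.01 in replicate 8 with both dyes measured. The T cell marker Cd3d was lowest in the same mouse, at -0.58, beside 1.65 to 2.99 in the other 7. Replicate 8 had the smallest share of spots with a NOD signal well above background (21.6%) and the highest share of NOD stand-ins (54.0%). The part of the array in these values was not tested.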

How the results depend on the processing

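No member was called lower under any alternative, and none was called higher except with median-centered signals (4: Gzma, Gzmb, Klrd1 and Fasl, beside 17.6% of all genes) and with the ratio of processed signals (1: Gzma, beside 10.3%). In the former, a spot at the floor in both dyes receives a log2 ratio of 1.97 to 3.97 by construction. With normexp and loess, an offset of 50 added to both signals draws the ratios of dim probes toward 0 by construction. The other role genes called higher numbered 32 with median-centered signals, 19 with the ratio of processed signals, and 0 with normexp and loess, on slide 1 alone and on slide 2 alone, where only 4 arrays enter; 1 was called lower with median-centered signals (H2-T23). Without any single mouse, 0 members and 2 role genes were called. A slide difference could not pass with 4 arrays against 4 once adjusted over 10 members, so that count says nothing.

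The sign turned for Gzmb without replicate 8 (-0.013, from where it ran to 0.42 without replicate 4), for Klrk1 with median-centered signals (1.17) and normexp (0.025), and for Fasl with median-centered signals (1.09), processed signals (0.36) and its other probe (0.28). It also turned for Cd8a with median-centered signals (0.010), normexp (0.017), slide 1 alone (0.18) and other probes (1.39 and 0.040), for Lamp1 with median-centered signals (-0.49) and normexp (-0.39), for Ctsl with normexp (0.087), and for Fcer1g with its other probe (-0.041). Of the genes without a test, Prf1 turned with normexp (0.055), processed (0.35) and median-centered signals (2.08), Cst7 likewise (0.043, 0.33 and 1.98), without replicate 8 (0.0060) and with its other probe (0.099), Gzmk on slide 1 alone (-0.10) and without replicate 7 (-0.18), and Ncr1 with median-centered signals (1.16). The causes were not tested. Over the alternatives, adjusted p-values (limma) ran from 0.00627 to 0.557 for Nkg7, 0.0296 to 0.709 for Ctsw and 1.4e-05 to 0.431 for Klrd1. No paired analysis was possible because all mice form 1 group. The stand-ins limit what can be said of all members but Nkg7 and Ctsw.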
